A study of Homo sapiens with 4 samples.

Results

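The expression of YAP, TEAD and their direct targets was examined in LNCaP and PC3 cells with and without atorvastatin (ATO), a statin that inhibits HMG-CoA reductase in the mevalonate pathway. The group comprised 10 genes of the 27224 gene names with a value on the array: the coactivators YAP1 and WWTR1 (the gene of TAZ), the DNA-binding factor TEAD1, and 7 genes that are known as targets of YAP and TEAD, namely CTGF, CYR61, ANKRD1, AXL, FJX1, AMOTL2 and LATS2. Members were all gene probes whose name on the array equalled one of these symbols (CTGF and CYR61 are the array's names for CCN2 and CCN1). Each member had 1 probe, and the 10 probes took up 19 spots per array, since YAP1 had 10 spots and the other 9 members had 1 each.

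Total RNA was hybridised to 1-colour Agilent arrays in 4 groups of 1 array each. LNCaP control and PC3 control were untreated cultures, for which the labels name no vehicle, and LNCaP ATO and PC3 ATO were cultures exposed to 10 µM ATO for 24 h. LNCaP is an androgen-dependent and PC3 an androgen-independent human prostate cancer line, and all cultures were grown in the same medium with serum and reached a low density before treatment. Since no group had more than 1 array, differences within a line have no p-value and no check by replicates, and their precision is set by that single pair of arrays.

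In PC3 cells all 7 targets were at least 1.5-fold lower with ATO, beside 10.3% of all genes counted. The members were chosen with earlier results of these data known. The differences ran from 6.29-fold for CTGF and 5.75-fold for CYR61 to 1.56-fold for AXL. YAP1, WWTR1 and TEAD1 differed by less than 1.5-fold, with log2 ratios of 0.10, 0.53 and -0.44. In LNCaP cells the 6 members measured on both arrays stayed within 1.5-fold. FJX1 had only a bound there, at least 1.31-fold lower. CTGF, ANKRD1 and AXL were not well above background on either LNCaP array. Of all genes counted in LNCaP, 2.77% were 1.5-fold higher and 1.99% were 1.5-fold lower. Between the untreated cultures all 10 members were at least 2-fold higher in PC3 than in LNCaP, beside 20.6% of all genes counted. The YAP1 difference fell below 2-fold under 2 alternatives of the processing.

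YAP and TAZ are coactivators that bind no DNA themselves and reach their target genes through the TEAD factors. In the Hippo pathway, a cascade of the MST kinases (STK3 and STK4) and the LATS kinases phosphorylates YAP and TAZ and keeps them out of the nucleus, and proteins of the angiomotin family bind them at cell junctions. Secreted matrix proteins such as CTGF and CYR61 are the most used readouts of nuclear YAP and TAZ, and AMOTL2 and LATS2 are targets that act back on the pathway as inhibitors.

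Processed intensities, in arbitrary units of the scanner, were set against the 75th percentile of each array, which was 497 for LNCaP control, 533 for LNCaP ATO, 588 for PC3 control and 569 for PC3 ATO. Between 48.5% and 52.9% of the gene spots were well above background and none was saturated, and probes with 10 copies varied between copies by a median SD of 0.08 to 0.10 on the log2 scale. Markers of the lines followed the labels: KLK3, KLK2 and TMPRSS2 were all higher on the LNCaP control array, by 17.5-fold or more, and CAV1, CD44 and VIM were all higher on the PC3 control array, by 151-fold or more. With ATO the PC3 markers had log2 ratios in PC3 of -1.26 for CAV1, -0.16 for CD44 and 0.17 for VIM. TMPRSS2 was 2.03-fold higher with ATO in PC3 and VIM 1.98-fold higher in LNCaP, and the part of these differences in the members' values was not tested. In RNA from a whole culture, a lower level in every cell and fewer cells with the transcript cannot be told apart.

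TEAD factors bind a short site with the letters GGAATG, read as CATTCC on the opposite strand. These letters were searched on both strands in the RefSeq promoter windows of the GRCh38.p14 assembly, which run from 250 bases before to 50 bases after a start of transcription. Windows were held for 8 of the 10 members (CYR61 and TEAD1 had none), and 6 of their 11 windows contained the motif, as did 14.0% of all 35116 windows. CTGF had 3 matches, a number found in 0.128% of all windows, ANKRD1 had 2, and YAP1, LATS2, the second start of AXL and the second start of AMOTL2 had 1 each. No match lay in the windows of WWTR1 (2 starts) and FJX1 or at the first starts of AXL and AMOTL2. A match is a description of the letters and not a site that was measured.

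The 250 bases before the start are shown for the 2 members with several matches, for 2 further targets with 1 match and, as a member whose level changed little, for YAP1. They are written 5′ to 3′ on the strand of the gene, with the motif in capitals. CTGF lies on the minus strand at chr6:131951373-131951622, ANKRD1 on the minus strand at chr10:90921088-90921337, AMOTL2 on the minus strand at chr3:134374448-134374697, AXL on the plus strand at chr19:41226505-41226754 and YAP1 on the plus strand at chr11:102110197-102110446.
CTGF: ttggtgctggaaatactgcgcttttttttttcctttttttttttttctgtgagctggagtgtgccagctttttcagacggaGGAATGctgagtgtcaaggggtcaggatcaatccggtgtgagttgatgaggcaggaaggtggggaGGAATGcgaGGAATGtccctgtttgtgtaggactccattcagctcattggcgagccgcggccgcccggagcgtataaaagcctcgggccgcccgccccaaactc
ANKRD1: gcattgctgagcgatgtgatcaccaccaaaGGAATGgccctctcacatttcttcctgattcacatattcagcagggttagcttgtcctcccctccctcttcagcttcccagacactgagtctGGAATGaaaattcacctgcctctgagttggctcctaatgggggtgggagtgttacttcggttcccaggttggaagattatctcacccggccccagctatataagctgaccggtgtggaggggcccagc
AMOTL2: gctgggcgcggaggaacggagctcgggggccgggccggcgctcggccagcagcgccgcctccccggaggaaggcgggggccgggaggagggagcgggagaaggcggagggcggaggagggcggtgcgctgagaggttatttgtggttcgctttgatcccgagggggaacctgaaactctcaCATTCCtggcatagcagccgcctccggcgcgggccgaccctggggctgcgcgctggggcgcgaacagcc
AXL: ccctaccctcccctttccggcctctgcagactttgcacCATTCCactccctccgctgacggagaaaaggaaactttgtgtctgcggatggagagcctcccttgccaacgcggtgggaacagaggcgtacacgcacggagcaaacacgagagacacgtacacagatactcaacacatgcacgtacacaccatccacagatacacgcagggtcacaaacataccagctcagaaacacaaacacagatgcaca
YAP1: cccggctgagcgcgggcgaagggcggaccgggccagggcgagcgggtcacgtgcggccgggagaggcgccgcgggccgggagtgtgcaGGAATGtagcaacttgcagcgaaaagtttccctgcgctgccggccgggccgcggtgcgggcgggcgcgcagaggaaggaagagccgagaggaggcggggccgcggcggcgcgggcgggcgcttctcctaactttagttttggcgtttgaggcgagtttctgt

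Counted from the start of transcription, the matches of CTGF began at positions -169, -104 and -95, and those of ANKRD1 at -220 and -128. The single matches began at -69 in AMOTL2, -212 in AXL, -162 in YAP1 and 10 in LATS2. In AMOTL2 and AXL the motif lay on the opposite strand.

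**Figure D1:**
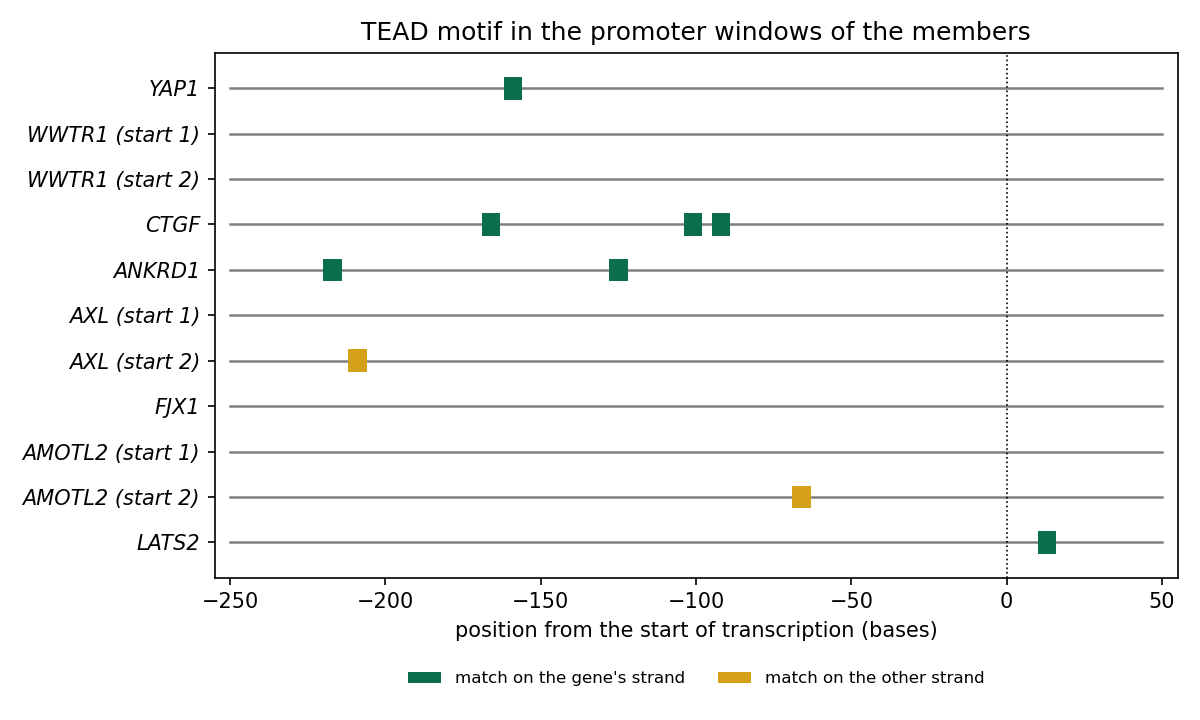
Matches to the TEAD motif (boxes; green on the strand of the gene, yellow on the opposite strand) in each promoter window of the 8 members with one, with the position in bases from the start of transcription on the x axis. CTGF has 3 matches, the farthest at -169, and the windows of WWTR1 and FJX1 have none.

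The coactivators and TEAD1 stayed within 1.5-fold with ATO in both lines. YAP1 (probe at chr11:101605794-101605853, hg18), the effector held back by Hippo kinases, had a mean intensity over its 10 spots of 162 ± 10.0 on LNCaP control, 170 ± 16.5 on LNCaP ATO, 427 ± 21.7 on PC3 control and 442 ± 24.6 on PC3 ATO (SD between spots of 1 array). The PC3 arrays were both higher than the LNCaP arrays, and within each line the spots of the 2 arrays overlapped. On both ATO arrays at least 1 of these spots lay in a bright local background. The highest was 195 units on LNCaP ATO (limit 171) and 176 on PC3 ATO (limit 134), and its part in the ratios was not tested. Scaled log2 ratios of ATO over control were 0.10 in PC3 and -0.03 in LNCaP, where the SD between the copies of YAP1 on 1 array was 0.07 to 0.14, and the LNCaP sign turned under cyclic loess and spike-in scaling.

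WWTR1, which encodes TAZ (chr3:150721283-150721342), had intensities of 238 and 246 on LNCaP control and LNCaP ATO and of 1174 and 1636 on PC3 control and PC3 ATO. It was the only member with a PC3 ratio near the threshold on the upper side, at 1.44-fold higher (log2 0.53, scanner error 0.20). The scanner error is the error of the 2 spots given by the image software and covers neither culture nor hybridisation. Scaling to the 50th percentile raised the PC3 ratio to 0.72, past 1.5-fold, while in LNCaP the log2 ratio was -0.05 and turned to 0.15 with spike-in scaling.

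TEAD1 (chr11:12921801-12921860), which carries the coactivators to DNA, had intensities of 308 on LNCaP control, 344 on LNCaP ATO, 1154 on PC3 control and 825 on PC3 ATO. The PC3 ATO array was below PC3 control and still above both LNCaP arrays. The log2 ratios were -0.44 in PC3 (scanner error 0.21) and 0.06 in LNCaP (0.21).

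**Figure D2:**
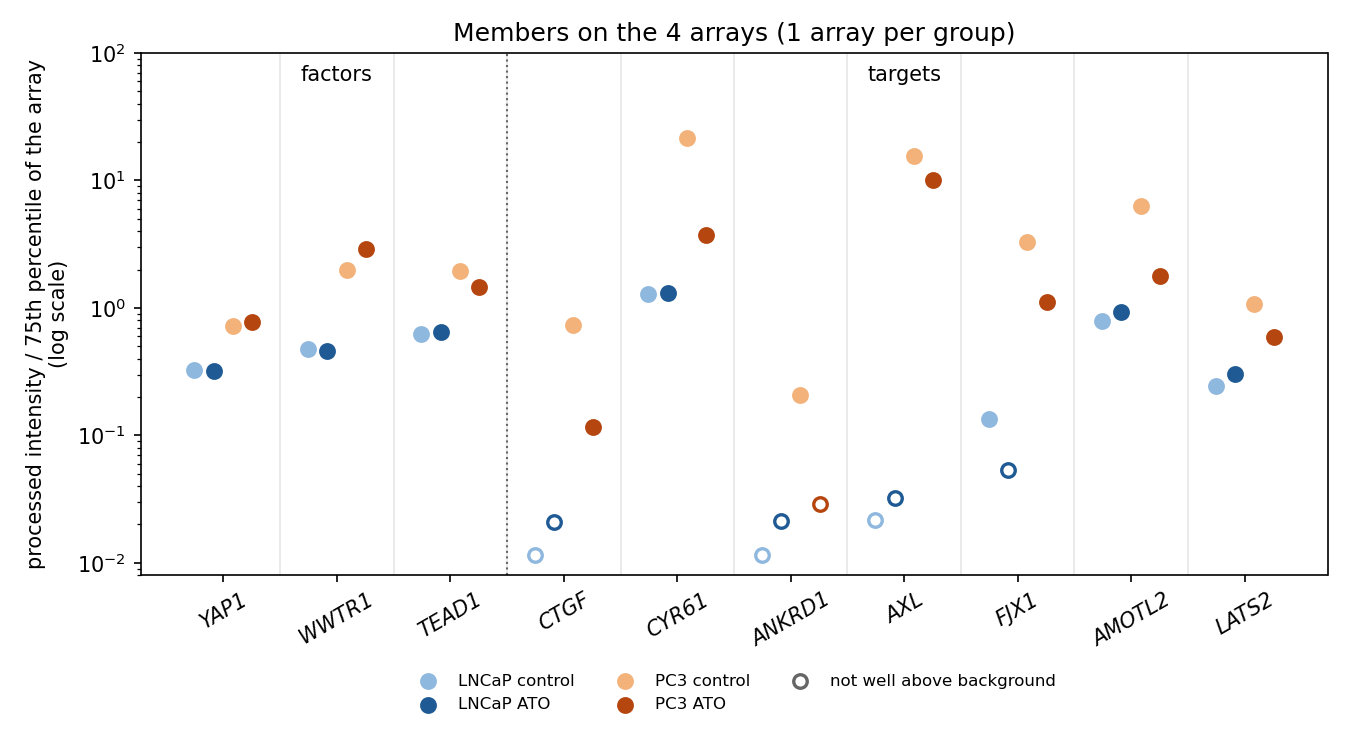
Processed intensity of each member over the 75th percentile of its array (log scale) on the 4 arrays, with open circles for values not well above background. Levels are to be compared within a gene only, since probes differ in brightness: for all 7 targets PC3 control is the highest of the 4 arrays.

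Each of the 7 targets was lower on the PC3 ATO array than on PC3 control by at least 1.5-fold, against 10.3% of the 13815 genes counted in PC3, and no member was higher by that much, against 8.20% of genes. The list was chosen with results of these arrays known, so the count describes the members and is no independent evidence of their direction. The median log2 ratio was -0.84 over the 9 members measured on both arrays and -1.70 over the 6 such targets, beside 0.01 over all genes.

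CTGF and CYR61, both secreted matricellular proteins of the CCN family, ranked 2 and 3 from the lowest ratio among the 12513 genes measured on both PC3 arrays. CTGF (chr6:132311823-132311882) had intensities of 433 on PC3 control and 66.6 on PC3 ATO, a log2 ratio of -2.65 (scanner error 0.32). The lower value was close to the lowest intensity that was well above background on that array, 53.8, and with normexp background correction the ratio was -1.85. On LNCaP control and LNCaP ATO the probe gave 5.72 and 11.1, neither of them well above background, so no ratio was taken there. PC3 control was therefore the one array on which CTGF was clearly bright.

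CYR61 (chr1:85821541-85821600) was measured on all 4 arrays, at 637 on LNCaP control, 692 on LNCaP ATO, 12699 on PC3 control and 2138 on PC3 ATO. PC3 ATO lay far below PC3 control and remained above both LNCaP arrays, which were alike. The log2 ratio was -2.52 in PC3 (scanner error 0.20) and 0.02 in LNCaP (0.21), where the sign changed with normexp correction.

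ANKRD1 (chr10:92662542-92662601), an ankyrin repeat protein that acts as a transcriptional cofactor in muscle, was well above background on the PC3 control array only, at 122. It gave 16.6 on PC3 ATO, 5.71 on LNCaP control and 11.3 on LNCaP ATO, none of them well above background. The difference in PC3 is a bound, at least 2.19-fold lower with ATO, in which the PC3 control value was set against the lowest value well above background on PC3 ATO.

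AXL (chr19:46459235-46459294), a receptor tyrosine kinase, showed the smallest difference among the targets. Its intensity was 9187 on PC3 control and 5692 on PC3 ATO, and 10.7 and 17.2 on LNCaP control and LNCaP ATO, both not well above background. The PC3 ratio was 1.56-fold lower (log2 -0.64, scanner error 0.20), just past the threshold, and at -0.45 with scaling to the 50th percentile it was not counted. The AXL spot on PC3 control lay in a bright local background (209 units, against a limit of 141 for that array), and the part of that background in the ratio was not tested.

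FJX1 (chr11:35598685-35598744), the human relative of the fly gene four-jointed, had intensities of 1951 on PC3 control and 627 on PC3 ATO, a log2 ratio of -1.59 (scanner error 0.21) at rank 38 from the lowest of the genes measured. On the LNCaP arrays it was dim, with 66.8 on control and 28.3 on ATO, the latter not well above background. The LNCaP difference is a bound of at least 1.31-fold lower, which does not reach the threshold.

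Both targets that act back on YAP as inhibitors were lower in PC3 with ATO, while their LNCaP ratios were positive and about as large as the scanner error. AMOTL2 (chr3:135557432-135557491), an angiomotin that binds YAP, had intensities of 392 on LNCaP control, 496 on LNCaP ATO, 3720 on PC3 control and 1020 on PC3 ATO. Its log2 ratio was -1.82 in PC3 (scanner error 0.20) and 0.24 in LNCaP (0.21). The spot on PC3 ATO lay in a bright local background (245 units, limit 134), and its part in the ratio was not tested.

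LATS2 (chr13:20445929-20445988), the kinase that phosphorylates YAP and TAZ, had intensities of 121 on LNCaP control, 160 on LNCaP ATO, 625 on PC3 control and 337 on PC3 ATO. The PC3 arrays were both above the LNCaP arrays. The log2 ratio was -0.84 in PC3 (scanner error 0.21), and in LNCaP it was 0.31 (0.24), the highest among the members there.

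**Figure D3:**
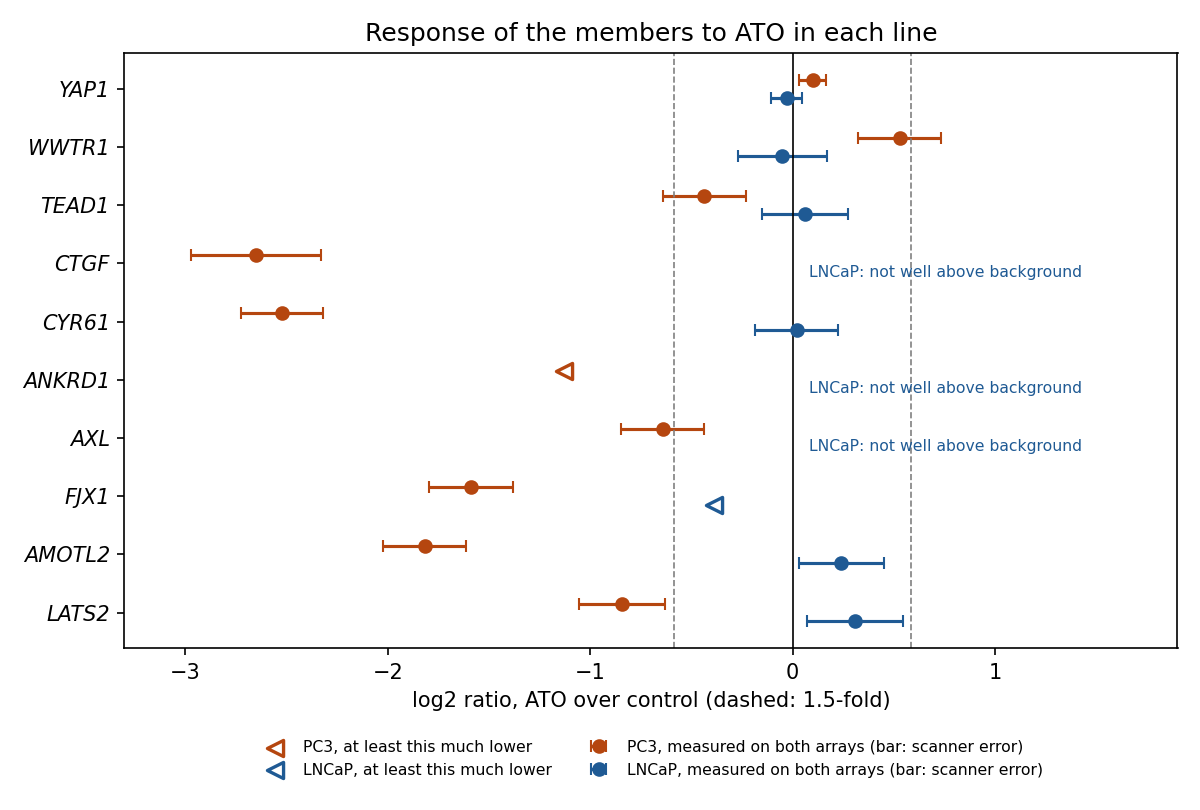
Log2 ratio of ATO over control for each member in PC3 (orange) and LNCaP (blue), with bars for the scanner error of the 2 spots, open triangles for bounds and dashed lines at 1.5-fold. The 7 targets lie left of the dashed line in PC3 and all LNCaP values lie between the dashed lines, that of FJX1 as a bound only.

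In LNCaP cells 0 of the 7 members counted was called 1.5-fold higher and 0 was called 1.5-fold lower, beside 2.77% and 1.99% of the 13739 genes counted there. For FJX1 the value is only a bound of at least 1.31-fold lower, which cannot tell whether it differed 1.5-fold. The 6 measured ratios ran from -0.05 for WWTR1 to 0.31 for LATS2 with a median of 0.04, against 0.01 for all genes. The other 3 targets were too dim on both LNCaP arrays for any ratio.

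The response of the lines was set side by side for the 6 members that were well above background on all 4 arrays. The PC3 log2 ratio minus the LNCaP log2 ratio was -2.54 for CYR61, -2.06 for AMOTL2 and -1.15 for LATS2, ranks 5, 10 and 135 from the lowest of 11016 genes. It was -0.50 for TEAD1, 0.13 for YAP1 and 0.58 for WWTR1. Over all these genes the median difference was near 0 with an SD of 0.43. With 1 array per group the difference between the lines could not be tested.

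On the control arrays all 10 members were at least 2-fold higher in PC3 than in LNCaP, beside 20.6% of the 15237 genes counted, and none was 2-fold lower, beside 19.0% of genes. YAP1 was 2.23-fold, TEAD1 3.17-fold and WWTR1 4.16-fold higher in PC3. Among the targets LATS2 was 4.38-fold, AMOTL2 8.01-fold, CYR61 16.8-fold and FJX1 24.7-fold higher. For the 3 targets not well above background in LNCaP the difference is a bound, at least 13.4-fold for CTGF, 3.76-fold for ANKRD1 and 284-fold for AXL. The YAP1 difference fell to 0.72 on the log2 scale with scaling to the 50th percentile and to 0.79 with normexp correction, below 2-fold.

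The gap between the lines was smaller on the ATO arrays than on the control arrays for the 3 targets measured on all 4 arrays. On the ATO arrays CYR61 was 2.89-fold, AMOTL2 1.92-fold and LATS2 1.98-fold higher in PC3, and TEAD1 was 2.25-fold higher. The gap of WWTR1 was larger than on the control arrays, at 6.22-fold, and that of YAP1, at 2.44-fold, was larger by 0.13 on the log2 scale with a scanner error of 0.10. FJX1 was still at least 10.7-fold and AXL at least 97.4-fold higher in PC3, CTGF was at least 1.14-fold higher, and ANKRD1 was not well above background on either ATO array.

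**Figure D4:**
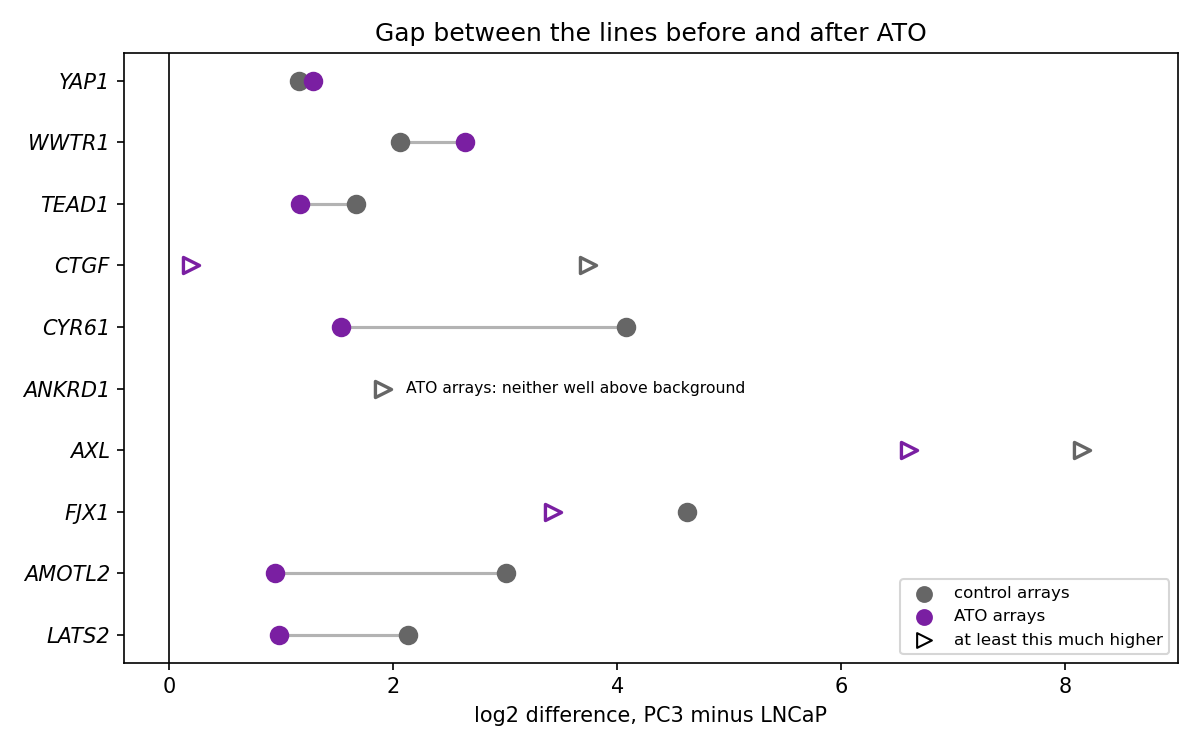
Log2 difference of PC3 minus LNCaP for each member on the control arrays (grey) and the ATO arrays (purple), with open triangles where LNCaP was not well above background and the value is a lower bound. The gap of CYR61 is 16.8-fold on the control arrays and 2.89-fold on the ATO arrays, and that of WWTR1 4.16-fold and 6.22-fold.

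A list of 15 other genes described as YAP and TEAD targets was examined in the same way. Like the members, it was chosen with earlier results of these data known, as were the lists of TEAD partners and the Hippo kinase arm. Its counts describe the genes listed and are no independent evidence of their direction. Of the 11 counted in PC3, 6 were lower with ATO and 0 was higher, beside 10.3% and 8.20% of all genes, with a median log2 ratio of -0.72. F3, which encodes tissue factor, had intensities of 640 on PC3 control and 77.6 on PC3 ATO. The latter was close to the lowest intensity well above background on that array, 53.8. The log2 ratio of F3, -2.997, was the lowest of the 12513 genes measured on both PC3 arrays. TGFB2, a growth factor of the TGF-beta family, was at -2.14, and ASAP1, an Arf GTPase-activating protein, at -1.52. IGFBP3, which binds insulin-like growth factors, was at -1.11, CCDC80, a matrix protein, at -0.85, and NT5E, the ecto-enzyme CD73, at -0.72. A dimmer probe of NT5E gave -1.49. The spots of TGFB2, IGFBP3, MYOF, DOCK5 and NUAK2 lay in a bright local background on at least 1 PC3 array. Without such genes 4 of 6 counted were lower, beside 8.34% of all genes under that alternative. MYOF had the highest ratio, 0.09, and a dimmer probe of it gave -0.51, while DOCK5 was at -0.45 on its brightest probe and 0.34 on a dimmer one. In LNCaP 6 genes of this list were counted and 0 was called at 1.5-fold, beside 2.77% higher and 1.99% lower over all genes. DOCK5 had only a bound there, at least 1.42-fold lower. On the control arrays 9 of 11 were higher in PC3 (20.6% of all genes) and ARHGEF17 and NUAK2 were lower (19.0%).

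The other TEAD factors and the vestigial-like cofactors, which also bind TEAD, formed a list of 7 genes. Of these 6 were counted in PC3, of which TEAD4 (log2 -0.74) and VGLL1 (-0.80) were lower with ATO and 0 was higher, with a median of 0.03, beside 10.3% and 8.20% of all genes. The VGLL1 difference was -0.55 with normexp correction, short of 1.5-fold. With the median over probes VGLL3 (log2 0.10 on its brightest probe) was counted as lower as well. Its other probe was not well above background on PC3 ATO and by itself gave only a bound of -0.39, short of 1.5-fold. In LNCaP 0 of 5 counted was called at 1.5-fold, beside 2.77% higher and 1.99% lower over all genes. TEAD2 had only a bound there, at least 1.34-fold lower. On the control arrays 2 of 6 counted were higher in PC3 and 0 was lower, beside 20.6% and 19.0% of all genes. The 2 were TEAD2 (log2 3.39) and VGLL1 (at least 14.8-fold).

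Of the 18 genes of the Hippo kinase arm and its junction scaffolds, 13 were counted in PC3, of which 3 were lower with ATO and 0 was higher, beside 10.3% and 8.20% of all genes, with a median of -0.13. The 3 were scaffolds or activators upstream of the kinases: FRMD6 (log2 -1.07), WWC1 (KIBRA, -0.88) and NF2 (merlin, -0.68, and -0.64 on a dimmer probe). The NF2 spot lay in a bright local background on at least 1 PC3 array. Without such genes 2 of 12 counted were lower, beside 8.34% of all genes under that alternative. The kinases STK3 and STK4 had log2 ratios of -0.15 and -0.11, and TAOK3, a kinase upstream of them, the highest of the list at 0.53. A dimmer probe of TAOK3 gave 0.21. In LNCaP 0 of 13 counted passed 1.5-fold, beside 2.77% higher and 1.99% lower over all genes. On the control arrays 5 of 14 were higher and 4 lower in PC3, beside 20.6% and 19.0% of all genes. With scaling to the 50th percentile the calls of TEAD4, NF2 and NT5E were lost, TAOK3 passed 1.5-fold and the median of the kinase arm turned to 0.06. The median of the TEAD partners turned to -0.05 with spike-in scaling and to -0.38 with the median over probes. The latter includes the dim value of the other VGLL3 probe.

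The profile of CYR61 over the 4 arrays, with each gene centred on its own mean, was most like those of SNAPC1, ASAP1, MYBL1, GPRC5B and C10orf47, at root mean square differences of 0.25, 0.37, 0.40, 0.51 and 0.59 (log2) among 11010 genes compared. SNAPC1, the nearest, had intensities of 171 on LNCaP control, 179 on LNCaP ATO, 3645 on PC3 control and 856 on PC3 ATO. The profile of AMOTL2 was most like those of RHOBTB3, CLCN4, C10orf47, LOC100132724 and TAGLN, at 0.12, 0.18, 0.18, 0.26 and 0.26. ASAP1 was the gene of the other target list among these neighbours. With 4 points per gene, such likeness is a description only.

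A change with ATO shared by both lines was tested by limma with cell line as a block and 1 residual degree of freedom. It found 0 of 11902 genes at an adjusted p under 0.05, the smallest being 0.762, while 532 genes (4.47%) had an unadjusted p under 0.05. With scaling to the 50th percentile 5 genes and with spike-in scaling 116 genes passed. Of the 7 members tested FJX1 (log2 -1.46) and CYR61 (log2 -1.25) had the lowest adjusted p by limma, 0.762 for both. That of AMOTL2 (log2 -0.79) also rounded to 0.762, so the adjusted p does not rank these members. FJX1 was lower on both ATO arrays, of which the LNCaP one was not well above background, and CYR61 was lower on PC3 ATO only. With spike-in scaling FJX1 was the 1 member that passed in limma, at an adjusted p of 0.00842, while its adjusted p under the other alternatives ran from 0.150 to 0.831. This test cannot address a difference between the lines.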

How the data were processed

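RNA of 2 prostate cancer lines was measured on 4 Agilent arrays of 1 slide, 1 per group, with groups taken from the sample labels. The authors obtained the spot intensities with Agilent Feature Extraction 9.5.3.1. Per the file headers these processed intensities were background-subtracted and detrended, with a surrogate for spots not above background. The authors also deposited a table of 1 ratio per probe. Set against the scanner files, it was each intensity divided by its array's 75th percentile, floored at 0.03, and served as an alternative only.

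Outlier spots were left out, copies of a probe were averaged as log2 intensities, and each array's 75th percentile over gene probes was subtracted. The brightest probe stood for a gene. A probe needed over 50% of its spots well above background to count as such. Genes were counted at 1.5-fold between ATO and control, and at 2-fold between the control arrays, when at least 1 of the arrays compared was well above background. Where only 1 was, the dim value was raised to the lowest value well above background on its array and the difference given as a bound. limma 3.58.1 in R 4.3.3 fitted ATO over both lines (two-sided, Benjamini-Hochberg), as an alternative also with an intensity trend. Other steps used Python 3.11.15. The rule for differences and bounds and the limma fit were tested on simulated data, and the remaining steps were not.

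All 10 members were named, as were genes of 3 further lists that passed the threshold or had the largest ratios, and the 5 nearest profiles to CYR61 and AMOTL2. Dimmer probes and the genes behind changed calls were named after their values were seen. Members and lists were chosen with earlier results of these data known. Probe positions are those of the files on hg18, for which no annotation was used, and promoters are from RefSeq. The alternatives were scaling to the 50th percentile, to spike-in probes, by quantiles or by cyclic loess, normexp correction (offset 50), no filter on dim probes, outlier spots kept, the median over probes, bright local backgrounds left out, a larger fold and the deposited table. No column of other samples was used. Some markers of LNCaP are not reported here.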

Additional observations from a re-analysis of the deposited data

Results flagged for a closer look

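For the 6 members measured on all 4 arrays the ratio of ATO over control had opposite signs in the lines, and the difference was not tested, since each group had 1 array. The PC3 log2 ratio minus the LNCaP log2 ratio was -2.54 for CYR61, -2.06 for AMOTL2, -1.15 for LATS2 and -0.50 for TEAD1, which were lower in PC3, and 0.58 for WWTR1 and 0.13 for YAP1, which were higher in PC3. The LNCaP ratios were all within 1.5-fold, and those of CYR61, WWTR1 and YAP1 changed sign under at least 1 alternative.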

How the results depend on the processing

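Across the alternatives the targets that gave a value kept a PC3 ratio below 0, and no difference past its threshold reversed. Below the threshold, the LNCaP ratios of CYR61 (normexp), WWTR1 (spike-in) and YAP1 (cyclic loess and spike-in) changed sign. Of 265 values of single members under an alternative, 233 moved by less than the scanner error and 32 by more. Many could not move: each member had 1 probe, so the median over probes left its values as they were. Leaving out bright local backgrounds removes values and changes none. Bounds were set against wide errors, such as 1.45 on the log2 scale for CTGF between the controls. The tally is therefore no measure of robustness. Scaling to the 50th percentile counted 6 members lower (without AXL) and 1 higher (WWTR1) in PC3, beside 6.59% and 15.6% of all genes. Leaving out bright local backgrounds counted 5 of the 7 members left as lower, beside 8.34% of all genes. The PC3 median was -1.22 without the filter on dim probes and also with bright local backgrounds left out, which removes YAP1, AXL and AMOTL2. Without the filter LNCaP had 1 member lower (FJX1) and 2 higher (CTGF and ANKRD1), all at dim values. Of all genes 38.1% were then counted higher and 4.79% lower. At 2-fold 5 members were lower in PC3, beside 3.79% of all genes. At 4-fold 7 members were higher on the PC3 control array, beside 10.3% of all genes. The shared test of both lines called 116 genes with spike-in scaling and 5 with the 50th percentile in place of 0, and the cause was not tested.

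Scaling moved all genes. The 50th percentile shifted the median by 0.19 in PC3 and -0.44 between the controls, and spike-in scaling by 0.20 in LNCaP and 0.52 between the controls, while cyclic loess shifted the controls by 0.16. Of the genes past the fold threshold, 44.4% were higher in PC3 with ATO, against 32.6% with spike-in scaling and 70.3% under the 50th percentile. In LNCaP 58.2% were higher, against 81.7% with spike-in scaling and 46.1% with normexp, and on the control arrays 52.0% were higher in PC3, against 32.3% under the 50th percentile and 75.7% by spike-ins. The shared test already pairs ATO with control within each line, and no further block was possible because each group had 1 array. Signal near background limits CTGF, ANKRD1 and, among the other targets, F3 on PC3 ATO. Of the members it limits CTGF, ANKRD1, AXL and FJX1 in LNCaP.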
